A study of Brassica carinata with 12 samples.

Results

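Anthers of synthetic Brassica carinata were compared between a haploid and a tetraploid form at meiosis, from 3 RNA-seq libraries of each form out of the 12 libraries of the study. The haploid, genotype BC, came from B. oleracea var. alboglabra pollinated by B. nigra, and holds a B set and a C set of chromosomes. The tetraploid, genotype BBCC, was obtained with ovule culture and colchicine, which doubles chromosomes. No other allele or agent is named for either form. The 6 libraries were chosen by their labelled stage, meiosis with sporogenesis, and the other 6 are labelled mitosis with gametogenesis. The labels give the tissue as young anther, but the protocol for RNA extraction mentions floral buds. No label ties the libraries of a form to different plants, so a p-value speaks of how far these libraries scatter, and that scatter may be technical only.

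Brassica carinata is an allotetraploid mustard whose B subgenome descends from B. nigra and whose C subgenome descends from B. oleracea. In a regular tetraploid each chromosome has a homologous partner at meiosis, whereas a haploid of this kind has only the related but diverged chromosome of the other subgenome to pair with. Many genes are present as homoeologues, a B copy and a C copy of the same ancestral gene. An anther holds the cells in meiosis together with the tapetum, the tissue that nourishes them, and several layers of wall cells, so that most RNA of a young anther need not come from the meiotic cells. In such bulk samples fewer cells of a type and less RNA per cell cannot be told apart.

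The count table held 97149 genes, whose IDs name the chromosome, with 37470 genes on 8 B chromosomes, 46642 on the C chromosomes other than C03, 5637 on C03 and 7400 on none. After a filter on low counts 51860 genes were tested, of which 20054 were on B, 24866 on C outside C03, 2554 on C03 and 4386 unplaced. Library totals lay between 15769687 and 16793767 counts. Libraries of the same form were close to each other. Across genes above 4 CPM (counts scaled to library size, with TMM factors), the difference in log2 CPM between 2 libraries had an interquartile width of 0.232 to 0.257 in the 6 pairs of the same form and of 0.642 to 0.671 in the 9 pairs of different form. The common biological coefficient of variation was 0.0869 in haploid and 0.0795 in tetraploid libraries. Gene IDs come without names in the files, so anther markers and meiotic gene lists could not be looked up and the labelled tissue was not checked against them.

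The comparison asked which genes and which parts of the genome differ between the forms at meiosis. Genes were called at an adjusted p under 0.05 in the quasi-likelihood test of edgeR, with p-values adjusted by Benjamini-Hochberg over all 51860 genes, and all fold changes are haploid over tetraploid. Higher expression in the haploid was called for 19.5% of all tested genes, and lower expression for 18.8%. Outside C03 the test called 8465 genes higher and 9721 lower. Most of these differences were small, since 1917 of the higher and 2089 of the lower genes reached 2-fold and 604 and 641 reached 4-fold. Over all tested genes, the shares called and past 2-fold were 5.38% higher and 4.08% lower. Calls seldom rested on very few reads, as 130 of all calls, or 0.654%, belonged to genes with 10 counts or fewer over the 6 libraries.

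The B and C subgenomes differed little in these totals. On B, 3418 genes were higher and 4149 lower, with a median log2 fold change of -0.02 and quartiles of -0.38 and 0.34. On C outside C03, 4251 were higher and 4765 lower, with a median of -0.01 and quartiles of -0.35 and 0.34. The unplaced genes divided into 796 higher and 807 lower around a median of 0.00. The 16 chromosomes other than C03 had median log2 fold changes between -0.04 and 0.00. The share of their genes called higher ranged from 15.7% on C02 to 18.9% on B05, and the share called lower from 18.0% on C08 to 22.2% on B01. C03 stood apart with 1631 genes higher and 53 lower.

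The 4 genes described singly had the largest increase and the largest decrease in each of B and C outside C03 among genes called, without overlap of the libraries, and with a mean of at least 100 CPM in the higher form and at least 1 CPM in the lower. In B 588 genes of 679 tested at 100 CPM met these limits and in C outside C03 682 of 792, most of them lower in the haploid (425 and 489). Abundant genes leaned this way in general, as above 64 CPM outside C03 58.5% were called lower and 23.6% higher. The files give no name or function for any of the 4.

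BcaB04g20927, on B04, had 118, 127 and 120 CPM in the 3 haploid libraries and 5.88, 7.09 and 6.99 CPM in the 3 tetraploid libraries. All haploid libraries lay above all tetraploid ones, which the choice of genes required. The difference was 18.3-fold, a log2 fold change of 4.19 (SE 0.05, adjusted p = 7.92e-36 in edgeR's quasi-likelihood test). At mitosis the same gene was among the abundant transcripts of both forms, with means of 16440 ± 348 CPM in the haploid against 10873 ± 239 CPM in the tetraploid (SD, n = 3).

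BcaC09g48506, on C09, showed nearly the same pattern from the C subgenome. Its haploid libraries had 107, 114 and 112 CPM and its tetraploid libraries 7.95, 5.98 and 6.34 CPM. The groups did not overlap, again by the choice of genes, and the log2 fold change was 4.04 (SE 0.05, edgeR adjusted p = 2.10e-34). This gene too was far more abundant at mitosis, with 13841 ± 101 CPM in haploid and 6525 ± 35.9 CPM in tetraploid libraries (SD, n = 3).

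The largest decreases were in genes that were less abundant at mitosis than at meiosis in both forms. BcaC07g36974, on C07, had 17.0, 20.5 and 20.9 CPM in the haploid libraries and 139, 142 and 128 CPM in the tetraploid libraries, a log2 fold change of -2.81 (SE 0.07, edgeR adjusted p = 1.14e-25). BcaB07g33372, on B07, had 31.9, 31.8 and 34.2 CPM in the haploid libraries and 189, 189 and 195 CPM in the tetraploid libraries, a log2 fold change of -2.55 (SE 0.06, edgeR adjusted p = 1.83e-27). In both genes every tetraploid library exceeded every haploid library, as the choice of genes required. The lower level in the haploid was also called at mitosis, where BcaC07g36974 had 3.97 against 55.0 CPM and BcaB07g33372 14.3 against 41.1 CPM.

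**Figure D1:**
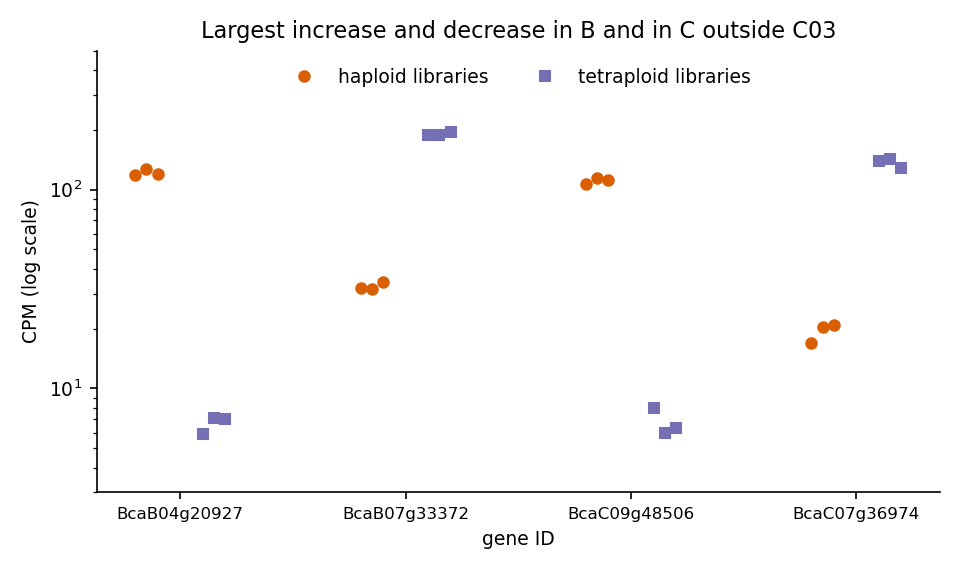
Each point is the CPM of 1 library, on a logarithmic axis, for the genes with the largest increase and the largest decrease in each of B and C outside C03 under the limits given above. Haploid libraries (circles) lie above the tetraploid libraries (squares) for BcaB04g20927 and BcaC09g48506 and below them for BcaB07g33372 and BcaC07g36974.

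Outside C03 and at 1 CPM or more on average, 228 genes were called at least 4-fold higher, 83 of them on B and 117 on C. Their median level was 5.39 CPM in the haploid against 0.514 CPM in the tetraploid, while genes not called had medians of 5.70 and 5.71 CPM, so it was the level in the tetraploid, low by the choice of a 4-fold difference, that set them apart. At mitosis the median level of these 228 genes was 19.8 CPM in haploid and 12.5 CPM in tetraploid libraries, and 92 of them, or 40.4%, were more than 4 times as abundant in the tetraploid at mitosis as at meiosis. Another 60, or 26.3%, were more than 4-fold below their meiosis level in the tetraploid at mitosis. Among genes not called at meiosis these shares were 2.47% and 9.93%, so the 228 genes held more of both kinds than those. Other genes with large changes did too. The shares were 9.04% and 22.3% among genes 2- to 4-fold higher and 6.47% and 19.2% among genes 2- to 4-fold lower. Among genes at least 4-fold lower they were 12.6% and 20.1%. A low tetraploid level at meiosis was part of how the 228 genes were chosen, which by itself raises their first share. The 269 genes called at least 4-fold lower had medians of 0.803 CPM in the haploid against 4.64 CPM in the tetraploid at meiosis. Their medians at mitosis were 1.45 and 4.08 CPM. Whether the anthers of both forms were taken at the same point of meiosis was not tested.

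Some genes were counted in 1 form only. With a mean of at least 1 CPM in one form and 0 counts in all 3 libraries of the other, 20 genes were found in the haploid only, 7 on B, 11 on C outside C03 and 2 on C03. Their haploid levels ran from 1.07 to 29.8 CPM with a median of 3.03 CPM, while 3 counts in a tetraploid library, the limit that a count of 0 allows, correspond to 0.183 CPM. Of these 20 genes 19 were more abundant at mitosis than at meiosis in both forms, with median levels at mitosis of 173 CPM in haploid and 114 CPM in tetraploid libraries. In the tetraploid this was set by the choice of genes, since any count at mitosis exceeds 0 counts at meiosis. The exception, on C08, had a mean of 1.38 ± 2.24 CPM (SD, n = 3) over the haploid libraries. In the tetraploid only, 2 genes were found, 1 on B and 1 on C outside C03, and in the tetraploid both were lower at mitosis, at no more than 0.349 CPM. In the haploid, where they had 0 counts at meiosis, they had 0.0879 and 0.589 CPM at mitosis. At a minimum of 5 CPM the counts were 8 and 0. The 2 tetraploid genes became 4, 5 and 7 without haploid library 1, 2 or 3 and 1 without tetraploid library 2.

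Expression level divided the genes more than subgenome did. Outside C03 the median log2 fold change was 0.00 for genes under 1 CPM, 0.01 from 1 to 4 CPM and 0.02 from 4 to 16 CPM, then -0.08 from 16 to 64 CPM and -0.22 above 64 CPM. The balance of calls moved with it, from 3322 higher and 2665 lower between 4 and 16 CPM to 604 higher and 1498 lower above 64 CPM. Both subgenomes showed this. Above 64 CPM the median was -0.24 on B, with 230 genes higher and 654 lower, and -0.21 on C outside C03, with 307 higher and 748 lower. Unplaced genes above 64 CPM had a median of -0.14. CPM is not a level per length, and when genes were grouped by mean FPKM (which divides by gene length) in place of CPM the median above 64 was -0.31.

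The trend turned at the highest levels. In finer classes, chosen after the data had been seen, the median outside C03 was -0.21 from 64 to 128 CPM, -0.29 from 128 to 256 CPM, -0.18 from 256 to 512 CPM and 0.02 from 512 to 1024 CPM. Above 1024 CPM it was 0.58, with 28 of 34 genes higher in the haploid and 4 lower, and with levels by mean FPKM the median above 1024 was 0.30. Of those genes 16 were on B, with a median of 0.58, and 17 on C, with a median of 0.56. The most abundant gene of all 6 libraries, which lies on B01 and has no name in the files, had 25797, 27083 and 26867 CPM in the haploid libraries and 16810, 16396 and 16006 CPM in the tetraploid libraries. Its haploid values all exceeded its tetraploid values (log2 fold change 0.70, SE 0.03, edgeR adjusted p = 2.61e-21). Together the 100 most abundant genes took 15.7% ± 0.161 of the counts in the haploid against 12.2% ± 0.0360 in the tetraploid (SD, n = 3). Because the shares of a library add up to a common total, those of other genes are relative to these. CPM values are scaled with TMM factors, which lay between 1.06 and 1.07 in the 6 libraries, so for them this holds nearly.

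**Figure D2:**
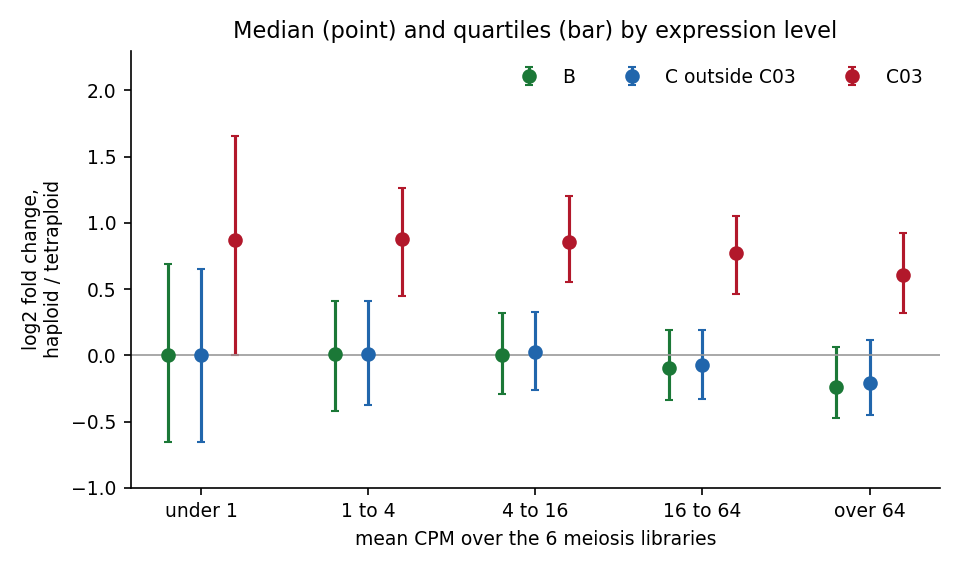
Points are the median log2 fold change of haploid over tetraploid and bars the quartiles over genes, for 5 classes of mean CPM over the 6 meiosis libraries. B and C outside C03 fall together from about 0 at low levels to -0.24 and -0.21 above 64 CPM, while C03 lies at 0.61 or higher in every class.

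Gene length separated the forms as well. A length per gene was derived from the ratio of counts to FPKM in the 6 mitosis libraries, and 95.6% of the tested genes outside C03 had one. Those libraries are on neither side of the meiosis contrast, but they entered the shared fit behind its filter, scaling and spread. The length is an implied one, not an annotated one. It was under 100 bases for 473 genes and over 20000 bases for 143, which are not plausible as lengths. The genes were divided by it into 5 length classes of equal size. From the shortest to the longest class, with median implied lengths of 406, 777, 1178, 1656 and 2709 bases, the median log2 fold change was -0.16, -0.12, -0.05, 0.02 and 0.23. In the shortest class the haploid was higher in 727 genes and lower in 2370, and in the longest class it was higher in 3383 and lower in 831. Across the 47118 genes Spearman's rho between length and log2 fold change was 0.23, a description over genes that share the same 6 libraries.

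The length gradient was present in each subgenome, with genes divided into 5 classes within it. On B the median rose from -0.19 in the shortest class to 0.24 in the longest, and on C outside C03 from -0.14 to 0.22. On C03 it rose from 0.63 to 1.09, and every class there lay above every class of B and C. It was also present within levels. The longest class exceeded the shortest by 0.31 on the log2 scale from 1 to 4 CPM, by 0.48 from 4 to 16 CPM, by 0.54 from 16 to 64 CPM and by 0.47 above 64 CPM, but by 0.01 under 1 CPM. Above 64 CPM the median was -0.42 in the shortest class and 0.04 in the longest.

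Single libraries of the same form gave similar values. When each library was set against the mean of the 6, its median deviation in the longest class minus that in the shortest was 0.195, 0.185 and 0.210 in the haploid libraries and -0.199, -0.177 and -0.180 in the tetraploid libraries. As that mean is taken over both forms, the opposite signs of haploid and tetraploid restate the gradient in fold change. The groups did not overlap, with p = 0.1 in an exact two-sided permutation test, the smallest that 3 libraries against 3 allow. Genes of the longest class took 21.2% ± 0.0741 of the counts in haploid and 18.5% ± 0.0995 in tetraploid libraries (SD, n = 3), and those of the shortest class 16.8% ± 0.190 and 18.6% ± 0.104. At mitosis the same measure, with lengths from the meiosis libraries, was 0.0453 ± 0.0176 in the haploid and -0.0469 ± 0.00859 in the tetraploid (SD, n = 3). What the gradient rests on was not tested.

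**Figure D3:**
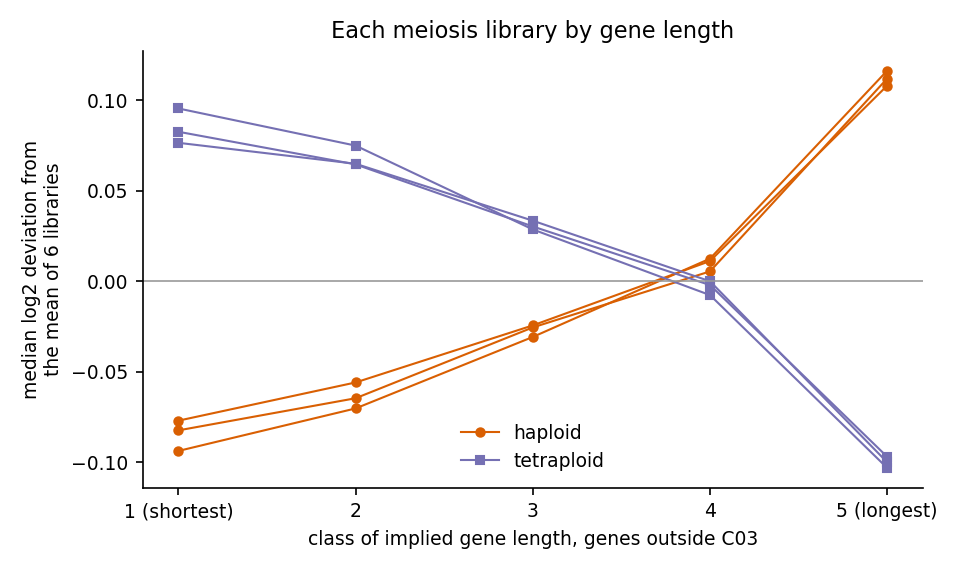
Each line is 1 meiosis library, and each point the median over genes outside C03 of its log2 CPM minus the mean of the 6 libraries, by class of implied gene length. The haploid libraries rise from between -0.0938 and -0.0771 in the shortest class to between 0.108 and 0.117 in the longest, and the tetraploid libraries fall.

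A fit in which each library's trend over length was removed, added after the data had been seen, called 7638 genes higher and 8654 lower outside C03. Of the 8465 genes called higher without it 6513, or 76.9%, were called higher again, and of the 9721 called lower 7687, or 79.1%. The median above 64 CPM was -0.20 in that fit, so the decrease at high levels was nearly as large with the length trend removed. By the calls of the reported fit, without that removal, implied length was also taken for genes outside C03 at 1 CPM or more. The median implied length was 1193 bases among genes not called. Among genes called higher it was 1878 bases under 2-fold, 1484 bases from 2- to 4-fold and 1151 bases at 4-fold or more. Among genes called lower it was 948, 991 and 941 bases in the same order.

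C03 was described apart, as most of its genes were higher in the haploid. The median log2 fold change over its 2554 tested genes was 0.83 with quartiles of 0.41 and 1.25. At 1 CPM or more 92.9% of its 1956 genes had a log2 fold change above 0, against 47.4% outside C03, and 61.7% lay between 0.5 and 1.5, against 13.5%. In the plot of fold changes the C03 genes form a single peak to the right of the others. In the haploid 4.38%, 4.39% and 4.37% of a library's counts came from C03 genes, and in the tetraploid 2.57%, 2.56% and 2.55% (p = 0.1, exact two-sided permutation test).

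**Figure D4:**
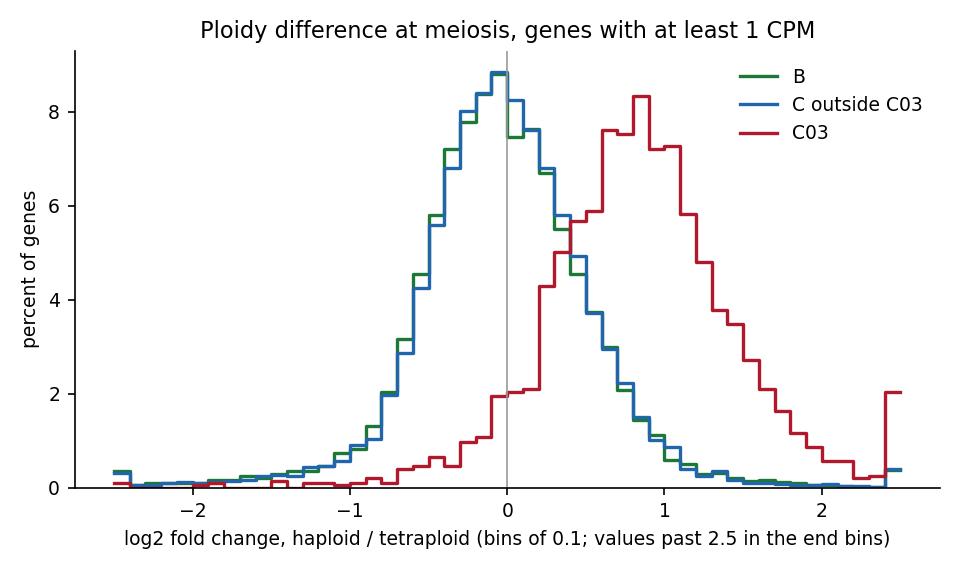
Lines give the percent of genes with at least 1 CPM in each bin of log2 fold change, haploid over tetraploid, with values past 2.5 placed in the end bins. B and C outside C03 overlap around 0, and C03 is displaced to a median of 0.83.

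The displacement ran along the whole of C03. In 10 equal blocks of its tested genes, in the order of the gene IDs, the median log2 fold change lay between 0.75 and 0.96, and between 58.8% and 68.2% of the genes of a block were called higher. The longest run of neighbouring tested genes that were all called higher held 22 genes on C03 and 8 genes elsewhere, on B05. Of the placed genes outside C03 17.1% were called higher, and of the C03 genes 63.9%. The 53 genes called lower were scattered over all 10 blocks, never more than 2 in succession, with a median of 4.59 CPM, and 13 of them were under 1 CPM. By level the C03 median was 0.87 under 1 CPM, 0.88 from 1 to 4 CPM, 0.86 from 4 to 16 CPM, 0.77 from 16 to 64 CPM and 0.61 above 64 CPM. The distance to the genes outside C03 in the same class was thus close to equal at all levels. The files hold no measurement of DNA, and the number of C03 copies in either form was not tested.

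Shares of counts by chromosome moved with a few abundant genes. Of the 16 chromosomes other than C03, B01, B03 and C06 had a higher mean share in the haploid and 13 a lower one, with changes between -7.64% on C07 and 4.56% on B01 of the tetraploid share. B01 held 9.77% ± 0.107 of the counts in the haploid against 9.35% ± 0.0381 in the tetraploid (SD, n = 3), a difference smaller than that of its most abundant gene alone, which took 2.82% and 1.75%. Without the 100 most abundant genes B01 held 6.84% in haploid and 7.32% in tetraploid libraries. The means of all 16 chromosomes were then lower in the haploid, with changes between -6.52% and -0.187% of the tetraploid share. In that setting C03 held 5.01% in the haploid against 2.85% in the tetraploid. As the shares of a library add up to a common total, the rise of C03 by itself lowers the sum of the other shares. How the share of each chromosome changes with C03 left out of the total was not tested.

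The balance of the subgenomes outside C03 turned with the same genes. Of all counts of placed genes outside C03, B genes held 47.3% ± 0.0321 in the haploid against 46.8% ± 0.00392 in the tetraploid (SD, n = 3), a difference of 0.503 percentage points (p = 0.1, exact two-sided permutation test). Without the 100 most abundant genes the difference was -0.186 percentage points. With C03 included the B share was 45.1% in haploid and 45.5% in tetraploid libraries, a difference of -0.441 percentage points, which was -1.23 without the 100 most abundant genes and did not turn. C03 counts among the C genes here, so its larger share in the haploid by itself lowers this B share.

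**Figure D5:**
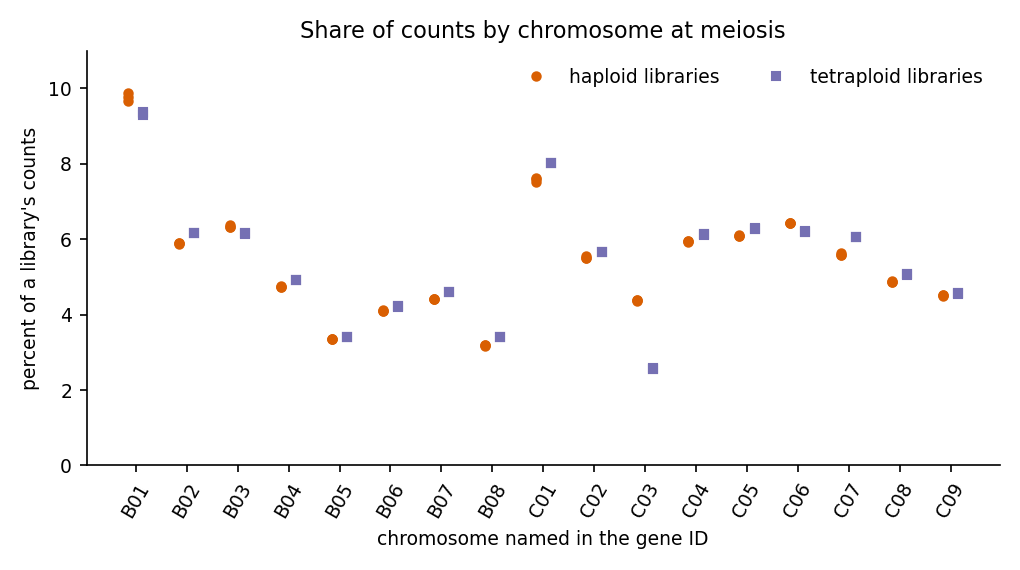
Each point is the percent of a library's counts from genes of 1 chromosome, for 3 haploid libraries (circles) and 3 tetraploid libraries (squares) at meiosis. C03 holds about 4.38% in the haploid against 2.56% in the tetraploid, and the other chromosomes differ by at most 7.64% of their share.

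The differences at meiosis were set beside those between the forms at mitosis, which come from other libraries but from the same fit. At mitosis the calls took in 23.3% of all tested genes as higher and 24.4% as lower in the haploid. Outside C03, 3692 of the 8465 genes higher at meiosis, or 43.6%, were also higher at mitosis, where 21.1% of all tested genes outside C03 were, and they made up 35.5% of the genes higher at mitosis. Of the genes lower at meiosis 4120 of 9721, or 42.4%, were lower at mitosis too, against 25.4% of all tested genes outside C03, and they made up 32.9% of the genes lower at mitosis. Opposite calls at mitosis were had by 15.3% of the higher and 15.1% of the lower genes. The shares were alike in the subgenomes, with 43.2% of the higher genes on B and 43.3% on C outside C03.

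The share called the same way at mitosis was also taken by size of the difference at meiosis, with no test between the sizes. This was done for genes outside C03 at 1 CPM or more. Of the genes in that set not called at meiosis, 20.5% were called higher and 16.5% lower at mitosis. Of the 228 genes at least 4-fold higher at meiosis 69.3% were called higher at mitosis, and of the 269 genes at least 4-fold lower 68.0% were called lower. From 2- to 4-fold the shares were 46.7% of the higher and 48.0% of the lower genes. Among the 6531 genes called higher by less than 2-fold the share was 44.0%, and among the 7624 called lower by less than 2-fold 39.6%. On C03, 1333 of the 1631 genes higher at meiosis, or 81.7%, were higher at mitosis, where 66.1% of all tested C03 genes were.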

How the data were processed

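Total RNA was sequenced from 12 libraries, and the 6 labelled as meiosis were compared. The deposited count table holds raw read counts per gene, as its whole-number values show, and the deposited FPKM table holds values for the same 97149 genes. The submitters' processing notes list featureCounts 2.0.1, HISAT2 2.1.0, TopHat2 and Bowtie2 2.2.3 without saying what each did. Not given in the sources used here are the build, annotation, strand setting and handling of reads matching both B and C copies, so counts of homoeologues, near-identical copies and overlapping genes are uncertain.

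The count test was run with edgeR 4.0.16 under R 4.3.3 (TMM factors, default filter on low counts, 1 model with a mean for each of 4 groups over 12 libraries, two-sided quasi-likelihood test, Benjamini-Hochberg adjustment over 51860 genes, which hold 99.8% of the counts of the meiosis libraries). SE was taken as the log2 fold change over the square root of the F statistic. The procedure was also run on simulated counts with a common spread for all genes and increases in the haploid only. That setting is simpler than these data, and no result here rests on it. No pair of libraries of a form agreed within sampling noise (mean chi-square per gene 2.52 to 3.08), so none was taken as a duplicate deposit; this does not show that they are separate biological samples. Implied length is the ratio of counts to FPKM, scaled to the library total, for genes with at least 10 counts. Log2 CPM used a prior count of 2. Limits for counts of 0 cover counting error only. Alternatives used DESeq2 1.42.0 and limma 3.58.1.

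The groups, lists, finer classes and named-gene rule were chosen with earlier results of these data known. The named genes are, in each of B and C outside C03, the largest increase and decrease among called genes with non-overlapping libraries, at least 100 CPM in the higher form and at least 1 CPM in the lower. Planned lists of named genes were not used, since the files do not pair IDs with names.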

Additional observations from a re-analysis of the deposited data

Results flagged for a closer look

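The difference between the forms was itself different at the 2 stages for each of the 4 genes described singly, by the interaction term of the edgeR fit (quasi-likelihood test, Benjamini-Hochberg adjustment). The log2 fold change at mitosis minus that at meiosis was -3.60 for BcaB04g20927 (adjusted p = 3.81e-31) and -2.95 for BcaC09g48506 (adjusted p = 1.49e-27), both higher in the haploid at both stages and by a smaller factor at mitosis. It was 1.03 for BcaB07g33372 (adjusted p = 8.81e-11), which was lower in the haploid at both stages and by a smaller factor at mitosis. It was -0.98 for BcaC07g36974 (adjusted p = 9.06e-07), which was lower by a larger factor at mitosis. The genes were chosen for their large change at meiosis.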

How the results depend on the processing

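Outside C03 the numbers of genes called higher and lower were 8465 and 9721 in the reported fit. They were 8309 and 9876 with median-of-ratios size factors, 7794 and 9249 with DESeq2, 8369 and 9847 on the 6 meiosis libraries alone, and 8923 and 8988 with C03 genes left out before the fit. Only the requirement of 2-fold (1917 and 2089) moved them by over 1.5 times, among the alternatives run. On C03 that requirement left 873 higher and 26 lower, and an adjusted p under 0.01 left 35 lower.

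Same-numbered libraries of the 2 forms did not deviate together (correlations of -0.01 to 0.00 over 3 pairs), so the numbers were not taken as pairs. With a replicate block the calls were 8229 and 9516 outside C03 and 1594 and 52 on C03. With the replicate block on 6 libraries, added after the data had been seen, the medians were 0.85 on C03, -0.031 on B and -0.016 on C outside C03, and the longest length class exceeded the shortest by 0.44.

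The median log2 fold change of B was -0.028 with median-of-ratios factors or DESeq2, -0.030 on the 6 libraries alone, -0.014 without a filter on low counts, -0.011 with FPKM in limma-trend (pseudocount 1), -0.0082 after length adjustment and 0.00 with C03 left out. That of C outside C03 was -0.013 with median-of-ratios factors or DESeq2, -0.015 on the 6 libraries alone, -0.0019 with FPKM and pseudocount 1, and 0.00 without the filter, after length adjustment or with C03 left out. The C03 median was 0.85 on the 6 libraries, 0.86 after length adjustment, 0.59 with FPKM and pseudocount 1 and 0.80 with pseudocount 0.1. The length difference was 0.39 as reported, 0.44 on the 6 libraries, 0.26 with FPKM and pseudocount 1, 0.42 with lengths from the meiosis libraries, and 0.0084 after length adjustment, which removes it by construction.

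Above 64 CPM the median was -0.20 with C03 left out or after length adjustment and -0.31 with levels by FPKM. Above 1024 CPM it was 0.60 with C03 left out, 0.55 with either FPKM pseudocount and 0.30 with levels by FPKM. For C03's share the difference was 2.16 percentage points without the 100 most abundant genes and 1.79 in FPKM. For the B share it was -1.23 and -0.567, and for the B share without C03 it reversed to -0.186 and was 0.327; beyond the abundant genes left out, the cause was not tested.

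Leaving out 1 library at a time, the C03 median ranged from 0.82 to 0.85, that of C outside C03 from -0.013 to 0.00, and the genes found in the tetraploid only from 1 to 7, where leaving out a haploid library removes one of the zeros required; the calls outside C03 ranged from 7321 to 7542 higher and from 8476 to 8618 lower. At 5 CPM the genes found in 1 form only were 8 and 0. What greater depth would change was not tested. The 4 named genes kept their direction and their call in all 17 fits and settings run for them. They had been chosen as extremes of the reported fit to the same libraries, which makes this likely by itself.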
